A study of Mus musculus with 6 samples.

Results

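The genes described are 9 interferon-stimulated and nucleic acid sensing genes, out of 49315 genes in the count table. They are the sensor Ifih1, the adaptor Tmem173, the nuclease Trex1, the transcription factors Irf3 and Irf7, and the interferon-stimulated genes Mx1, Ifit1, Ifit3 and Isg15. They were found by gene name. They were chosen on the contrast of Rpa1 OcKO with Control counts in these same libraries, with the higher Mx1 count in Rpa1 OcKO oocytes already known, so their values in that contrast are given as a description, with no p for any of them. The question is whether oocytes that lack a DNA repair protein carry the RNA of an interferon-type response.

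The study measured the RNA of mouse oocytes with and without Rpa1, whose product is the largest part of replication protein A, the complex that coats single-stranded DNA during replication and repair. The Rpa1 OcKO group held oocytes of 3 mice with an oocyte-specific conditional knockout of Rpa1. The Control group held oocytes of 3 mice labelled Control. Mice of both groups were 4 to 5 weeks old and had been primed with PMSG, a gonadotropin that drives follicle growth, and each library was made from about 20 fully grown germinal vesicle oocytes, free of cumulus cells. The sources used here do not give the Cre driver, the strain or the exact genotype of the Control mice. Germinal vesicle oocytes are arrested in the first meiotic prophase, and when fully grown they make little new RNA and hold a large stored pool.

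In most cells, DNA in the cytosol is bound by cGAS, encoded by Mb21d1, which makes a cyclic dinucleotide that activates STING, encoded by Tmem173, and double-stranded RNA is bound by MDA5, encoded by Ifih1. Both routes activate IRF3 and IRF7, which switch on interferon genes, and secreted interferon acts through its receptor, the JAK kinases and a complex that contains IRF9. That complex binds the interferon-stimulated response element in front of genes such as Isg15, Ifit1, Ifit3 and Mx1, while TREX1 degrades stray DNA before it is sensed.

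The response element is shown because it is what the interferon-stimulated genes among the 9 are known to share, and the choice of genes did not use it. Its core was searched as GAAA, 2 bases of any kind and GAAA again, on both strands of the RefSeq promoter windows of build GRCm38.p6, each 300 bases long, with 250 bases before the transcript start and 50 after. A window was present for 7 of the 9 genes, all but Mx1 and Tmem173. The motif was found in 4 of these 7, Isg15, Ifit1, Ifit3 and Ifih1, and in 3.99% of all 27025 genes with a window (3.44% of 32851 windows). The stretches that hold it in front of 3 interferon-stimulated genes are printed 5′ to 3′ along the gene's strand, with matches in capitals; a match on the other strand reads as TTTC repeated.
Isg15: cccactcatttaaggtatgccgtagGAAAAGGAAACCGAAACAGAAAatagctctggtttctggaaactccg
Ifit1: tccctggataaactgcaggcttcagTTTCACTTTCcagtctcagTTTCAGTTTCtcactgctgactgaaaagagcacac
Ifit3: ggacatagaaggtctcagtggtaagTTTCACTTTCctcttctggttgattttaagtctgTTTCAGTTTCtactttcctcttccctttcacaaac
The Isg15 stretch is chr4:156200850-156200921 on the minus strand, and its 3 matches overlap each other and begin 78, 72 and 66 bases before the start. The Ifit1 stretch is chr19:34640760-34640838 on the plus strand, with separate matches that begin 104 and 85 bases before the start. The Ifit3 stretch is chr19:34583348-34583441 on the plus strand, with matches 156 and 122 bases before the start. In Ifih1 the only match lay 33 bases after the start. No match was present in the windows of Irf3, Irf7 and Trex1. These are matches of letters, and no binding was measured.

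The libraries held 42203260, 44575222 and 36280148 counts on genes in Rpa1 OcKO oocytes, and 37693672, 41402926 and 36612443 in Control oocytes. Rpa1 itself had 340, 188 and 278 counts in Rpa1 OcKO oocytes, against 5640, 5885 and 4860 in Control oocytes (log2 fold change -4.59, edgeR quasi-likelihood test, Benjamini-Hochberg adjusted p = 0.0064). Over 16060 genes tested, edgeR called 22 higher and 1 lower at an adjusted p under 0.05. No gene, Rpa1 included, was called without Rpa1 OcKO replicate 3, without Control replicate 3 or with the replicate block, and DESeq2 called 477 higher and 272 lower. The summed level of 10 oocyte markers was 23920 to 29470 CPM (counts scaled to the size of the library) in Rpa1 OcKO libraries and 28770 to 46750 CPM in Control libraries. The 8 granulosa cell markers summed to 51.1 to 76.4 CPM in Rpa1 OcKO libraries and 40.7 to 69.8 CPM in Control libraries. The 8 leukocyte markers, none of which was at 0 in all libraries, summed to 5.29 to 8.99 CPM in Rpa1 OcKO libraries and 3.94 to 13.2 CPM in Control libraries. Endothelial markers summed to 143 to 238 CPM in Rpa1 OcKO libraries and 111 to 160 CPM in Control libraries. Most of this sum was Pecam1, which overlapped, and Tek. Tek was at 114, 49.1 and 49.1 CPM in Rpa1 OcKO libraries and 36.6, 32.1 and 25.7 CPM in Control libraries. Kdr had 0, 511 and 113 counts in Rpa1 OcKO libraries and 606, 210 and 1 in Control libraries, and Cdh5 had 1 read in all. The red cell markers summed to 0.137 to 0.549 CPM in Rpa1 OcKO libraries and 0.303 to 1.06 CPM in Control libraries. The part of RNA from other cells in the results was not tested.

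Few reads were counted on 5 of the 9 genes in either group. Ifih1, Trex1, Irf7, Ifit3 and Isg15 had at most 11 counts in any library and did not pass the filter on low counts; of these, the counts of Trex1 and Ifit3 are limited by overlapping or near-identical genes. The other 4, Irf3, Mx1, Ifit1 and Tmem173, passed. Irf3 alone made up 86.1% of all counts on the 9 genes. In the fit over all genes, in which 0.143% of tested genes were called by edgeR, 0 of these 4 were called. Mx1 was the only gene of the 9 with every Rpa1 OcKO library above every Control library, an order seen in 10.7% of all tested genes; none had every Rpa1 OcKO library below, an order seen in 8.67%. Mx1 passed the filter only through its Rpa1 OcKO libraries, and the contrast chose the genes, so nothing is read from these counts.

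Per length, in TPM (counts scaled for transcript length and library size) averaged over the 6 libraries, the order was Irf3, Ifit1, Mx1, Tmem173, Irf7, Ifit3, Isg15 and Ifih1, with the place of Ifit3 uncertain. Trex1, listed at 0, has no place in this order, because all its exonic bases lie in exons of another gene. Irf3 stood clear of the other 8 genes in every library, at 28.9, 11.3 and 25.5 TPM in Rpa1 OcKO oocytes and 25.9, 8.27 and 17.7 TPM in Control oocytes. Ifit1, Mx1 and Tmem173 came next, and their ranges over the 6 libraries overlapped. The remaining 4 genes of this order were all below 0.3 TPM in each library, where order is set by a few reads.

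**Figure D1:**
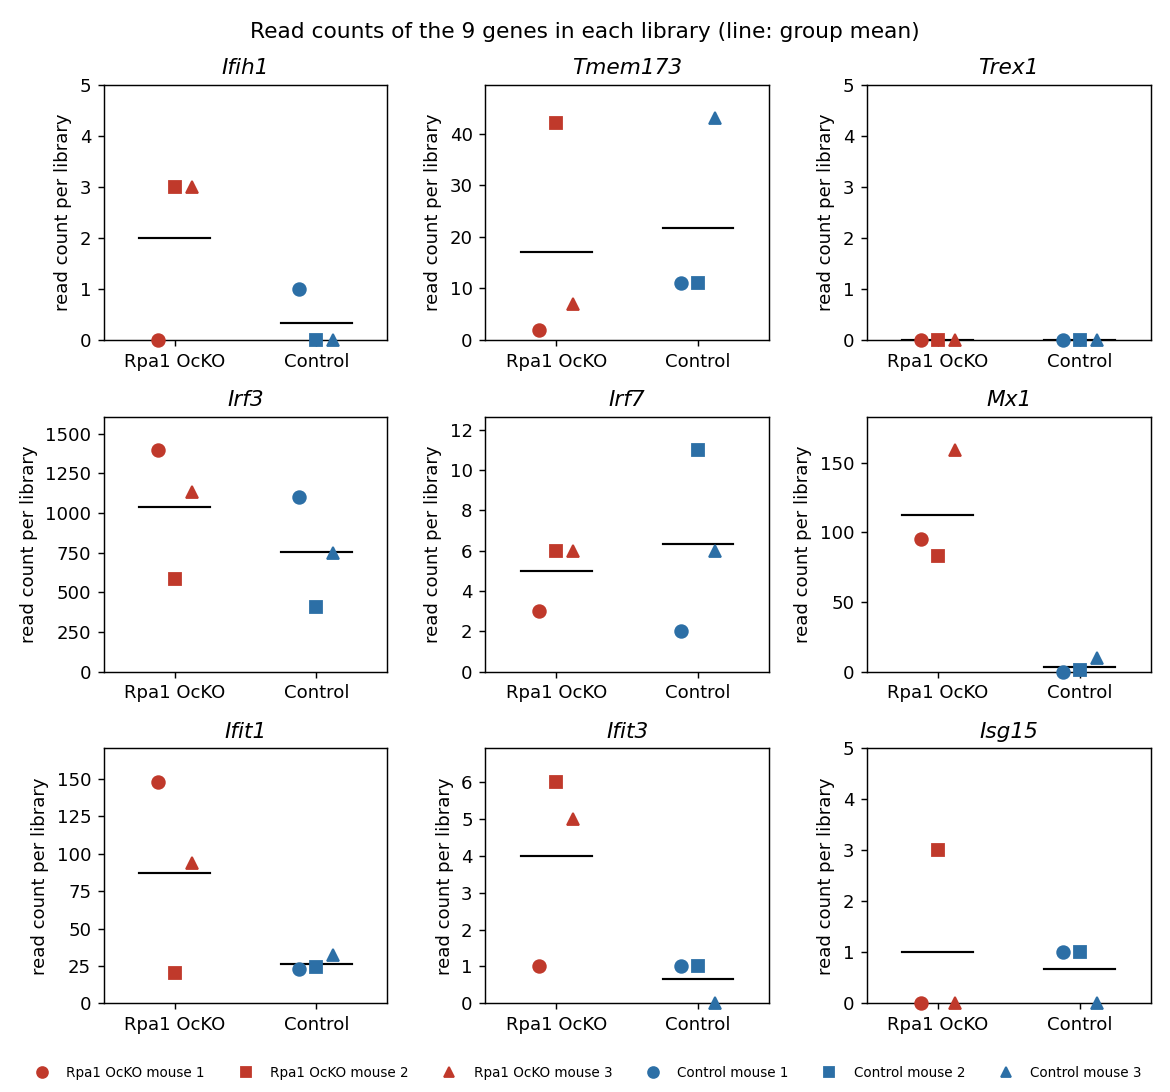
Read counts (vertical axis, reads on the gene per library, one scale per gene) of the 9 genes in 3 Rpa1 OcKO and 3 Control libraries; symbols are single libraries and lines are group means. Mx1 had 95, 83 and 159 counts in Rpa1 OcKO libraries and 0, 1 and 10 in Control libraries, while the other 8 genes overlapped between groups or were at 0 throughout.

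The sensor Ifih1 and the adaptor Tmem173 were scarce in both groups. Ifih1 (ENSMUSG00000026896; chromosome 2, 62595798 to 62646255, minus strand, GRCm38) encodes the double-stranded RNA sensor MDA5. It had 0, 3 and 3 counts in Rpa1 OcKO oocytes and 1, 0 and 0 in Control oocytes. The ratio of the summed counts, 6 in Rpa1 OcKO to 1 in Control, scaled for library size, was 5.03, with an exact 95% counting interval of 0.610 to 231. At this depth no difference was detectable. Such intervals cover counting error only, and in bulk RNA fewer cells of a type and less RNA per cell cannot be told apart.

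Tmem173 (ENSMUSG00000024349; chromosome 18, 35733678 to 35740554, minus strand) encodes STING, the adaptor downstream of cGAS. It had 2, 42 and 7 counts in Rpa1 OcKO oocytes and 11, 11 and 43 in Control oocytes. Each group had 1 library with about 40 counts and the other libraries near 10 or below, and the groups overlapped. The mean level was 0.380 ± 0.474 CPM in Rpa1 OcKO oocytes and 0.610 ± 0.543 CPM in Control oocytes (SD, n = 3 each). The log2 fold change was -0.68; without Control replicate 3 it was 0.36, and without Rpa1 OcKO replicate 2 it was -2.41.

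Trex1 (ENSMUSG00000049734; chromosome 9, 109057933 to 109059734, minus strand), which encodes the main DNA exonuclease of the cytosol, was listed at 0 in all 6 libraries. All of its exonic bases lie in exons of Gm42641, a gene annotated on the same strand. Of the 1059 genes whose exonic bases all lie in other genes' exons, 97.3% were at 0 in all 6 libraries, against 44.4% of all genes. The 0 therefore cannot be read as absence of Trex1 RNA. Gm42641 had 0, 2 and 38 counts in Rpa1 OcKO oocytes and 1, 7 and 0 in Control oocytes. Atrip, which encodes the partner that brings the ATR kinase to RPA-coated DNA, has transcripts that hold 95.8% of the 50-base words of Trex1. Atrip had 9, 4 and 113 counts in Rpa1 OcKO oocytes and 0, 2 and 2 in Control oocytes.

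Of the transcription factors, Irf3 was present in every library and Irf7 was nearly silent. Irf3 (ENSMUSG00000003184; chromosome 7, 44997648 to 45002848, plus strand) encodes the factor activated first by STING and by the RNA sensors, mostly through phosphorylation of protein already made. It had 1398, 583 and 1133 counts in Rpa1 OcKO oocytes and 1101, 410 and 746 in Control oocytes. Libraries varied widely within each group and the groups overlapped. The mean was 24.2 ± 10.1 CPM in Rpa1 OcKO oocytes and 20.9 ± 9.77 CPM in Control oocytes (SD, n = 3 each), with a log2 fold change of 0.21. This difference was smaller than the spread between libraries, and its sign turned when Rpa1 OcKO replicate 1 was left out (-0.04) or Control replicate 2 was left out (-0.06). Bcl2l12, on the other strand, shares 88 of the exonic bases of Irf3, or 2.56%.

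Irf7 (ENSMUSG00000025498; chromosome 7, 141262706 to 141266481, minus strand) is itself interferon-stimulated and amplifies the response. It had 3, 6 and 6 counts in Rpa1 OcKO oocytes and 2, 11 and 6 in Control oocytes. The groups overlapped, and the scaled ratio of summed counts was 0.662 (95% counting interval 0.313 to 1.38).

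Mx1 showed the widest separation of the 9 genes. Mx1 (ENSMUSG00000000386; chromosome 16, 97447035 to 97462907, minus strand) encodes a dynamin-like GTPase that blocks influenza and related viruses in mice, and many laboratory strains carry alleles that make no working protein. It had 95, 83 and 159 counts in Rpa1 OcKO oocytes and 0, 1 and 10 in Control oocytes. All Rpa1 OcKO libraries lay above all Control libraries, and 10 of the 11 Control counts came from replicate 3. The mean was 2.63 ± 1.12 CPM in Rpa1 OcKO oocytes and 0.105 ± 0.159 CPM in Control oocytes (SD, n = 3 each). The summed counts, 337 in Rpa1 OcKO and 11 in Control, gave a scaled ratio of 25.7. This ratio describes the values that chose the gene and is not a test. The fitted log2 fold change was 4.62, and it was 7.35 without Control replicate 3, where a single Control count remained. Even in Rpa1 OcKO oocytes the level stayed low, at 2.25 TPM on average against 0.0812 TPM in Control oocytes. Of the 50-base words in Mx1 transcripts, 4.37% also occur in other genes, most of them in its paralog Mx2, which had 0, 0 and 1 counts in Rpa1 OcKO oocytes and 0, 1 and 0 in Control oocytes.

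The other 3 interferon-stimulated genes did not separate the groups. Ifit1 (ENSMUSG00000034459; chromosome 19, 34640871 to 34650009, plus strand) encodes a protein that binds viral RNA lacking a complete cap. It had 148, 20 and 94 counts in Rpa1 OcKO oocytes and 23, 24 and 32 in Control oocytes. Rpa1 OcKO replicates 1 and 3 were above all Control libraries and replicate 2 was below them. The mean was 2.04 ± 1.49 CPM in Rpa1 OcKO oocytes and 0.728 ± 0.166 CPM in Control oocytes (SD, n = 3 each), with a log2 fold change of 1.48 that ranged from 0.90 without Rpa1 OcKO replicate 1 to 2.00 without Rpa1 OcKO replicate 2.

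Ifit1 has an abundant relative in these oocytes. Ifit1bl2, which shares 7.06% of the 50-base words of Ifit1, had 22668, 33948 and 15229 counts in Rpa1 OcKO oocytes and 17705, 14563 and 20433 in Control oocytes. Ifit1 counts equalled 0.653%, 0.0589% and 0.617% of these in Rpa1 OcKO libraries and 0.130%, 0.165% and 0.157% in Control libraries. The sources used here do not say how reads that match several genes were counted, and the part of Ifit1bl2 reads in the Ifit1 count was not tested.

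Ifit3 (ENSMUSG00000074896; chromosome 19, 34583531 to 34588731, plus strand), whose human counterpart works as a partner of IFIT1, had 1, 6 and 5 counts in Rpa1 OcKO oocytes and 1, 1 and 0 in Control oocytes. The scaled ratio of summed counts was 5.03 (95% counting interval 1.12 to 46.3), and the groups overlapped. This interval covers counting error only and is not a test of the groups. Its near copy Ifit3b holds about 51.2% of its 50-base words, so reads may have been split or lost, and the Ifit3 counts are uncertain. Isg15 (ENSMUSG00000035692; chromosome 4, 156199424 to 156200818, minus strand), which encodes a ubiquitin-like protein joined to other proteins during the response, had 0, 3 and 0 counts in Rpa1 OcKO oocytes and 1, 1 and 0 in Control oocytes. No difference in Isg15 was detectable at this depth, where 3 counts correspond to 0.0659 to 0.0863 CPM.

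Over the 6 libraries, log2 CPM of Mx1 had a Pearson r of 0.59 with Ifit1, 0.22 with Irf3 and -0.23 with Tmem173. The r of Ifit1 was 0.69 with Irf3 and -0.76 with Tmem173. These values describe the same 6 libraries and share their depth.

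The tested genes most like Mx1 over the 6 libraries (Pearson r of log2 CPM, n = 6) were Psg16 (0.997), Smtn (0.996), Ccdc88b (0.995), Plpbp (0.994) and Gfi1b (0.993). None of these 5 is on the interferon lists, but those hold only 91 of the 16060 tested genes, so nothing is read from this. Smtn, which encodes smoothelin of the contractile apparatus, was at 2.94, 1.80 and 3.91 CPM in Rpa1 OcKO oocytes and 0, 0 and 0.259 CPM in Control oocytes. Gfi1b, a transcription factor of red cell and platelet precursors, was at 5.95, 2.85 and 6.68 CPM in Rpa1 OcKO oocytes and 0, 0 and 0.403 CPM in Control oocytes. As for Mx1, both had their highest value in Rpa1 OcKO replicate 3 and their highest Control value in replicate 3. Both were picked for their likeness to Mx1 in these libraries, so this is no separate observation.

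The neighbours of Mx1 did not share its pattern in these counts. Bace2, which encodes a membrane aspartyl protease, lies 8023 bases away and had 848, 854 and 1008 counts in Rpa1 OcKO oocytes and 674, 1129 and 607 in Control oocytes. Fam3b, which encodes a secreted cytokine-like protein, lies 8143 bases away on the other side and had 3, 35 and 50 counts in Rpa1 OcKO oocytes and 358, 0 and 78 in Control oocytes. Both overlapped between groups, with log2 fold changes of -0.06 for Bace2 (edgeR adjusted p = 0.972) and -2.54 for Fam3b (edgeR adjusted p = 0.728).

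**Figure D2:**
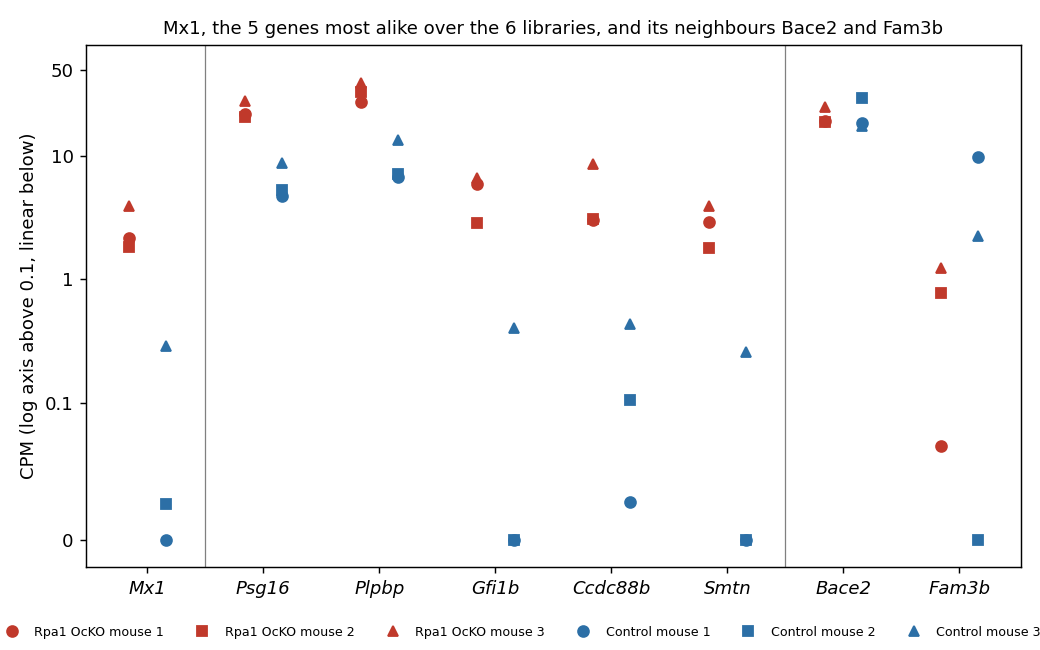
Levels (vertical axis, CPM, logarithmic above 0.1 and linear below) of Mx1, the 5 genes with the highest Pearson r to it over the 6 libraries and its neighbours Bace2 and Fam3b; symbols are single Rpa1 OcKO (red) and Control (blue) libraries. Mx1 lies between 1.82 and 3.91 CPM in Rpa1 OcKO libraries and between 0 and 0.288 CPM in Control libraries, and Bace2 and Fam3b overlap between groups.

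The rest of the interferon pathway was read from 9 lists of 159 other genes, all in the table. The lists were chosen with earlier results of these data known, so their shares are a description. Of these, 91 passed the filter on low counts. edgeR called 0 of the 91 higher and 0 lower. Before adjustment, 3 had a p under 0.05 with a higher level and 4 with a lower one, or 3.30% and 4.40%, against 5.93% and 5.21% of all tested genes. With DESeq2 the calls were 2 higher and 0 lower, and with limma voom 0 and 0; over all genes DESeq2 called 477 higher and 272 lower. The log2 fold change was positive in 42 and negative in 49, with a median of -0.03 against 0.01 over all tested genes, 50.8% of which were positive. With library size alone as the scaling, which shifted the all-gene median by 0.17, 56 of the 91 were positive. Every Rpa1 OcKO library was above every Control library in 10 of the 91 (10.99%) and below in 8 (8.79%), shares near those of all genes given with Mx1. Of these, 6 of the 10 and 3 of the 8 were among the 27 tested interferon-stimulated genes. A p above the threshold does not show that a gene was equal in both groups.

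**Figure D3:**
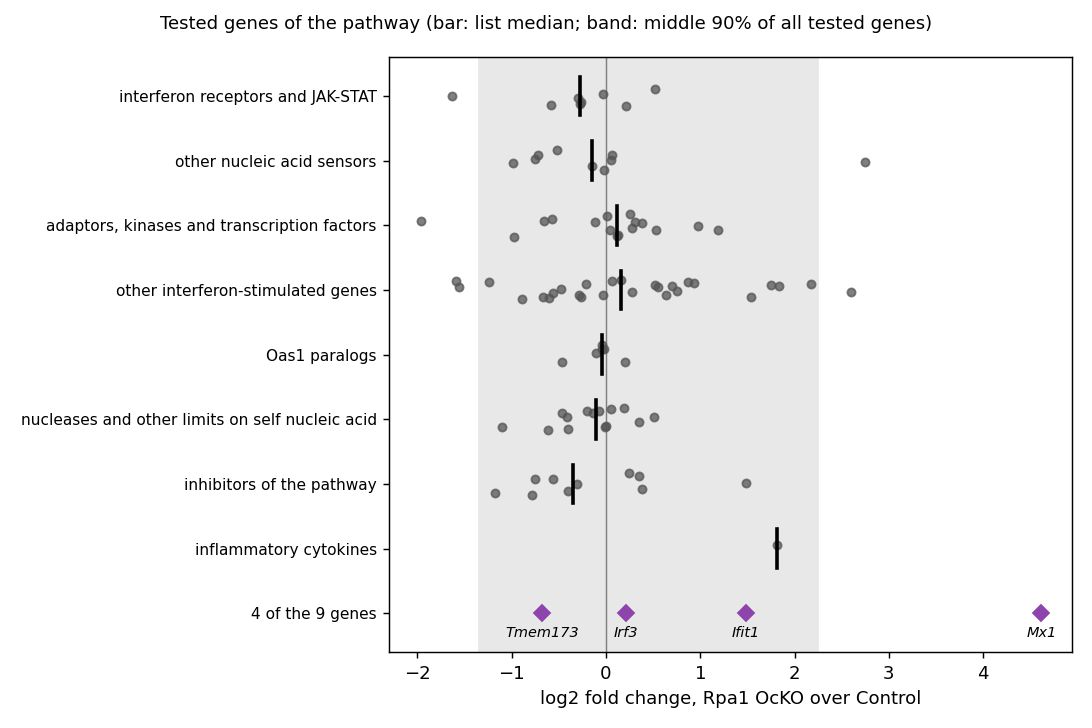
Log2 fold change, Rpa1 OcKO over Control (horizontal axis), of each tested gene of 8 pathway lists (grey points, spread vertically only for visibility) and of the 4 of the 9 genes that passed the filter (diamonds); bars are list medians and the band holds the middle 90% of all tested genes. The list medians with more than 1 gene lie between -0.35 and 0.16, and Mx1 stands at 4.62. With library size alone as the scaling, the medians of the other sensors, the Oas1 paralogs and the nucleases turn positive (0.01, 0.14 and 0.07).

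Interferon ligand RNA was almost absent. Of 21 interferon genes, 16 had no count in any library and none passed the filter. Counts above 0 were present in an Rpa1 OcKO library for 5 of them and in a Control library for 1, and each of the 5 had few counts or counts mostly in 1 library. Over all genes, more were detected in each Rpa1 OcKO library (19915, 22393 and 21251) than in any Control library (18435, 18330 and 19351). Ifna12, a type I interferon, had 102, 0 and 0 counts in Rpa1 OcKO oocytes and 0, 0 and 0 in Control oocytes. Ifnk, the interferon kappa of keratinocytes, had 0, 1 and 26 counts in Rpa1 OcKO oocytes and 0, 0 and 0 in Control oocytes. Ifng, the type II interferon of T and NK cells, had 4, 2 and 0 counts in Rpa1 OcKO oocytes and 7, 2 and 0 in Control oocytes. Ifnl3, a type III interferon picked after its values were seen, had 1, 15 and 0 counts in Rpa1 OcKO oocytes and 0, 0 and 0 in Control oocytes. For Ifna12, Ifnk and Ifnl3 nearly all counts came from a single library. Counts held by a single library were common at this depth: of genes with 20 to 500 counts in all, 16.6% of 8600 had at least 90% of them in 1 library, as did 7 of 44 pathway genes.

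Of the receptors and JAK-STAT genes, 8 of 12 were tested, with a positive fold change in 2 and a negative one in 6 and a median log2 fold change of -0.27. Ifnar1, a chain of the type I interferon receptor, averaged 48.9 ± 6.54 CPM in Rpa1 OcKO oocytes and 42.3 ± 10.6 CPM in Control oocytes (log2 fold change 0.21, edgeR adjusted p = 0.858). Jak1, the kinase attached to the receptor, averaged 249.7 CPM in Rpa1 OcKO oocytes and 255 CPM in Control oocytes, less than the spread between libraries. Jak2, which serves other cytokine receptors too, was at 101, 108 and 91.7 CPM in Rpa1 OcKO oocytes and 151, 174 and 125 CPM in Control oocytes. The Jak2 groups did not overlap, and the log2 fold change of -0.58 was not past the threshold (edgeR adjusted p = 0.304).

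Of the other sensors, 9 of 13 were tested, with 3 positive and 6 negative fold changes and a median of -0.15, or 5 positive and a median of 0.01 with library size alone. Mb21d1, the gene of the DNA sensor cGAS, was far more abundant than Tmem173, at a mean of 37.2 TPM in Rpa1 OcKO oocytes and 56.0 TPM in Control oocytes, against 0.504 TPM of Tmem173 in Rpa1 OcKO oocytes and 0.749 TPM in Control oocytes. By library, Mb21d1 was at 62.9, 44.9 and 40.6 CPM in Rpa1 OcKO oocytes and 103.9, 71.1 and 70.2 CPM in Control oocytes. All Rpa1 OcKO libraries were below all Control libraries, and the log2 fold change of -0.72 was not past the threshold (edgeR adjusted p = 0.372). Ddx58, the gene of the RNA sensor RIG-I, averaged 27.0 ± 13.5 CPM in Rpa1 OcKO oocytes and 27.3 ± 4.69 CPM in Control oocytes, and Ddx41, a helicase also described as a DNA sensor, averaged 99.7 ± 14.3 CPM in Rpa1 OcKO oocytes and 95.3 ± 14.8 CPM in Control oocytes (SD, n = 3 each). Both differed by less than the spread between libraries.

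Of the adaptors, kinases and transcription factors, 16 of 21 were tested, with 11 positive and 5 negative fold changes and a median of 0.12. Ikbkb, the gene of the IKK-beta kinase that releases NF-kappaB, was at 196, 124 and 115 CPM in Rpa1 OcKO oocytes and 62.6, 59.8 and 99.0 CPM in Control oocytes. The groups did not overlap, and the log2 fold change of 0.97 was not past the threshold of edgeR (adjusted p = 0.266), whereas DESeq2 gave an adjusted p of 0.0428. Rela, an NF-kappaB subunit, averaged 128 ± 38.8 CPM in Rpa1 OcKO oocytes and 106 ± 19.9 CPM in Control oocytes. Irf1, an interferon-induced transcription factor, had the highest mean CPM of this list, at 294 ± 34.6 CPM in Rpa1 OcKO oocytes and 269.7 ± 53.2 CPM in Control oocytes (SD, n = 3 each).

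Of 51 other interferon-stimulated genes, 27 were tested and 17 had at most 10 counts in every library. Fold changes were positive in 15 and negative in 12, with a median log2 fold change of 0.16. Every Rpa1 OcKO library was above every Control library in 6 of the 27, an order seen in 10.7% of all tested genes. Every Rpa1 OcKO library was below in 3 of the 27, an order seen in 8.67% of all tested genes. Whether this list departs from all genes was not tested. edgeR called 0 of the 27, against 0.143% of all tested genes. Before adjustment, a p under 0.05 was reached by 2 with a higher and 1 with a lower level. Cmpk2, a mitochondrial nucleotide kinase next to Rsad2 in the genome, had the smallest p of all 91 genes, at 142, 176 and 118 CPM in Rpa1 OcKO oocytes and 103.6, 79.8 and 75.4 CPM in Control oocytes. Its groups did not overlap, and the log2 fold change of 0.75 had an adjusted p of 0.258 in edgeR and 0.0419 in DESeq2. Ifitm3, which blocks virus entry, was at 140.4, 122 and 156 CPM in Rpa1 OcKO oocytes and 61.4, 147 and 48.7 CPM in Control oocytes, where the high Control replicate 2 made the groups overlap. Epsti1 went the other way, at 53.0, 77.5 and 37.9 CPM in Rpa1 OcKO oocytes and 86.2, 84.6 and 84.6 CPM in Control oocytes (log2 fold change -0.60, edgeR adjusted p = 0.506).

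Oasl2, picked after its values were seen and an interferon-stimulated relative of the 2-5A synthetases, had 59, 45 and 75 counts in Rpa1 OcKO oocytes and 1, 1 and 30 in Control oocytes, a low level with its highest Control count in replicate 3, as for Mx1. It was not called by edgeR (log2 fold change 2.18, adjusted p = 0.670).

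Of the 6 Oas1 paralogs kept as a list of their own, 4 were among the most abundant RNAs of these oocytes. In mice the Oas1 family has expanded, most of the extra copies are not active 2-5A synthetases, and Oas1d is known from oocytes. Oas1e ranked 15, Oas1d 18, Oas1c 37 and Oas1h 79 among all genes by mean TPM, whereas Oas1f ranked 746 and Oas1b averaged 24.8 ± 8.30 TPM in Rpa1 OcKO oocytes and 31.1 ± 9.87 TPM in Control oocytes (SD, n = 3 each). Oas1e averaged 4596 ± 481 TPM in Rpa1 OcKO oocytes and 4446 ± 464 TPM in Control oocytes, and Oas1d averaged 4485 ± 892 TPM in Rpa1 OcKO oocytes and 4141 ± 379 TPM in Control oocytes (SD, n = 3 each). In CPM with the normalization of the test, the log2 fold change was -0.10 for Oas1e, -0.04 for Oas1d, -0.02 for Oas1c and 0.20 for Oas1h, with overlapping groups in all 4. Of the 6 paralogs on this list 1 had a positive fold change. With library size alone 5 had one, and the median of all tested genes was then 0.18. The smallest adjusted p in this list by edgeR was 0.744, for Oas1h. Oas1a and Oas1g were counted with the other interferon-stimulated genes, with log2 fold changes of 1.75 and 1.54 (edgeR adjusted p = 0.79 and 0.67). The groups overlapped for Oas1a and not for Oas1g. These paralogs are close in sequence, so reads may be split among them.

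**Figure D4:**
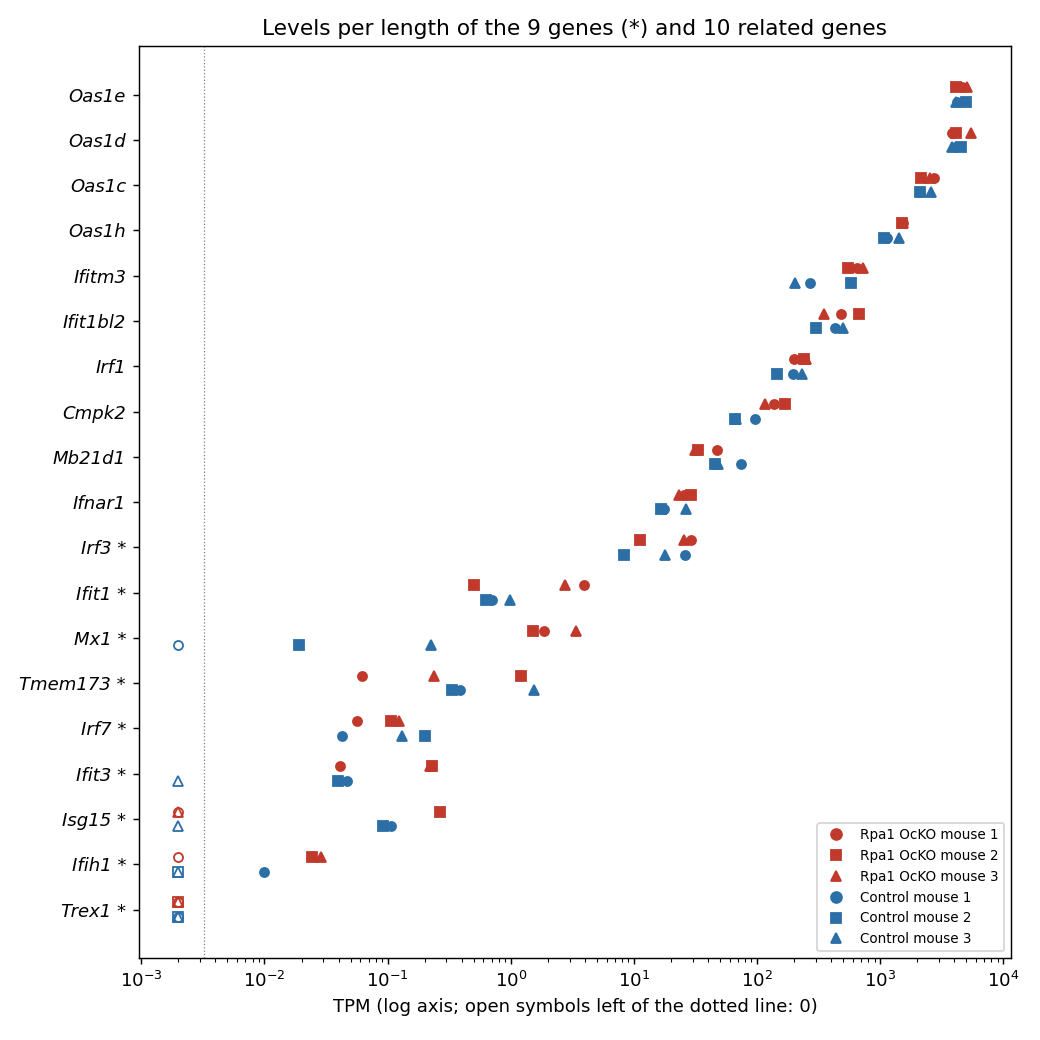
Levels per length (horizontal axis, TPM, logarithmic; open symbols left of the dotted line are at 0) of the 9 genes (marked with an asterisk) and 10 related genes in each of 3 Rpa1 OcKO (red, upper) and 3 Control (blue, lower) libraries. Oas1e, Oas1d and Oas1c lie to the right of all 9 genes, Irf3 between 8.27 and 28.9 TPM, and Mx1 between 1.52 and 3.38 TPM in Rpa1 OcKO libraries and between 0 and 0.225 TPM in Control libraries.

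Nucleases and other genes that limit sensing of the cell's own nucleic acid had 14 of 18 tested, with 5 positive and 9 negative fold changes and a median log2 fold change of -0.11, or 9 positive and a median of 0.07 with library size alone. Adar, which edits double-stranded RNA so that MDA5 ignores it, averaged 123 ± 21.6 CPM in Rpa1 OcKO oocytes and 119 ± 29.2 CPM in Control oocytes. Banf1, whose protein coats DNA and keeps cGAS off it, averaged 129 ± 10.3 CPM in Rpa1 OcKO oocytes and 136 ± 13.8 CPM in Control oocytes. Ttc37, a part of the SKI complex that unwinds RNA for decay, averaged 142 ± 40.0 CPM in Rpa1 OcKO oocytes and 187 ± 47.7 CPM in Control oocytes (SD, n = 3 each). All 3 overlapped between groups, as did Rnaset2b, a lysosomal ribonuclease with the smallest p of this list (log2 fold change -0.61, edgeR adjusted p = 0.587).

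Of the inhibitors of the pathway, 10 of 11 were tested, with 4 positive and 6 negative fold changes and a median log2 fold change of -0.35. Rnf125, a ubiquitin ligase that lowers RIG-I, had the smallest p, at 16.1 ± 6.23 CPM in Rpa1 OcKO oocytes and 27.6 ± 7.09 CPM in Control oocytes (SD, n = 3 each; log2 fold change -0.78, edgeR adjusted p = 0.549). Pias1, a SUMO ligase that dampens cytokine signalling, and the phosphatases Ptpn2 and Ptpn11 had the highest mean CPM of this list, with log2 fold changes of -0.31, 0.25 and -0.40 and overlapping groups. Inflammatory cytokines were scarce, and 1 of 6 was tested. Ccl2, the monocyte chemokine, had 56, 622 and 100 counts in Rpa1 OcKO oocytes and 98, 85 and 0 in Control oocytes, with overlapping groups. Il6 had 0, 43 and 0 counts in Rpa1 OcKO oocytes and 0, 0 and 0 in Control oocytes, and Cxcl1 had 1, 22 and 0 in Rpa1 OcKO oocytes and 38, 0 and 0 in Control oocytes.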

How the data were processed

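RNA of about 20 oocytes per library was sequenced from 6 libraries. The authors deposited raw read counts per gene, as a table and as a file per library, which held the same values. Per the submitters' processing notes, Trimmomatic 0.36, STAR 2.5.2b and featureCounts of Subread 1.5.2 were used with build GRCm38; the sources used here do not give the annotation release, the strand setting or the treatment of reads that match several genes. Groups came from the sample titles, which name a mouse per sample, 3 per group.

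The counts were tested with edgeR 4.0.16 (R 4.3.3; TMM scaling, filterByExpr, quasi-likelihood test, Benjamini-Hochberg adjusted p under 0.05), after a check on simulated data. Members and lists were chosen with earlier results of these data known. CPM used TMM-scaled library sizes, and TPM used the deposited exonic lengths. Counting intervals were exact binomial intervals at 95%. Exon overlaps were computed on the exon positions deposited with the counts. Shared 50-base words were computed on transcripts of GENCODE M21, which holds 99.5% of the gene IDs.

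Beyond the 9 genes and Rpa1, the text names the called genes of each list, its 3 highest by mean CPM and the 1 with the smallest p, the 5 genes most like Mx1 by Pearson r of log2 CPM (prior count 2), and its nearest neighbours. Genes that overlap or share sequence with the 9 (Mx2, Gm42641, Atrip, Bcl2l12, Ifit1bl2 and Ifit3b) and markers named singly were named outside this rule, after their values were seen. So were Oas1a, Oas1b, Oas1f, Oas1g, Ifnl3 and Oasl2. Alternatives were library-size scaling, DESeq2 1.42.0, limma 3.58.1 voom, other filters, a replicate block and leaving out each library.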

Additional observations from a re-analysis of the deposited data

How the results depend on the processing

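Over all genes, edgeR's 22 higher and 1 lower calls became 477 and 272 with DESeq2, 0 higher with limma voom, and 0 to 4 higher and 0 to 2 lower when single libraries were left out; no call higher or lower was left without Rpa1 OcKO replicate 3 or without Control replicate 3. With library size alone they were 29 and 1, and with either other filter 33 and 1. Whether mouse numbers paired the samples was not settled. Same-numbered libraries had correlations of -0.037, -0.0448 and -0.0450 of their deviations from group means. Deviations from a mean of 3 libraries are tied to each other, so these values do not decide it. The replicate block gave 0 higher and 0 lower. The cause of these differences in calls was not tested. Of the pathway genes, DESeq2 called 2 higher; the other alternatives called 0 higher, and every alternative called 0 lower. Library size alone moved the median of all genes by 0.17 and the pathway median to 0.15, against -0.03 with TMM; it lay between -0.09 and 0.15 over the alternatives. The log2 fold change of Mx1 stayed between 4.04 and 7.35 and that of Ifit1 between 0.90 and 2.00, while Irf3 (-0.06 to 0.58) and Tmem173 (-2.41 to 0.36) changed sign. Ifit1 and Tmem173 had no value at 1 CPM in 3 libraries, and the other 5 of the 9 genes had none in the comparison itself. With 3 libraries per group and 1 read worth 0.0220 to 0.0288 CPM, changes in genes of a few counts were not detectable.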
